A study of Mus musculus with 2 samples.

Results

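Cytosolic ribosomal proteins are the protein parts of the ribosome, the particle that translates mRNA. Their genes were examined in macrophages drawn from the peritoneum of wild-type C57BL/6 mice after thioglycolate. One library came from nontreated (NT) cells and the other from cells that received IL-4 over 6 h, the cytokine that drives alternative (M2) polarization. Members were chosen by symbol alone. They are every listed gene named Rpl or Rps with a number and at most 1 further letter a, x or l, together with Rpsa, Rplp0, Rplp1 and Rplp2. This gave 80 genes of 15623 listed in 1 or both libraries, and all 80 had at least 1 read.

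Each of the 2 groups held 1 library, so no difference could be set against the spread between animals, and no test of the conditions was made. Adherent cells were starved in medium with little serum before stimulation, and macrophages lacking Trim24 were not used here. One label calls the cells peritoneal macrophages, whereas the tissue field says bone marrow. The 8 macrophage markers examined, among them Cd68, Adgre1 and Csf1r, were all present in both libraries. Of the 8, 5 had a log2 ratio of IL-4 over NT above 0, the highest being 0.90 for Csf1r. Lower in IL-4 were Cd14 (-1.07), Fcgr1 (-0.39) and Lyz2 (-0.06). The summed abundance of the 8 was 17095 CPM (counts scaled to the library total) in NT and 17408 CPM in IL-4. Of this, Lyz2 alone had 11731 and 11241 CPM. Neutrophil markers summed to 170 and 302 CPM, of which Csf3r alone had 159.3 and 292.5 CPM. S100a8 had 35 and 21 counts, Cxcr2 had 84.1 and 83.9, and Ly6g, Mpo, Retnlg and S100a9 were listed in neither library. Markers of B cells, T cells, mast cells, eosinophils and mesothelium each summed to under 10 CPM, and those of fibroblasts to 148 and 128 CPM. Arg1, a known IL-4 target, had 30 counts in NT and 7711 in IL-4. The totals were 11035641 expected counts in NT and 11250099 in IL-4.

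A ribosome has a small (40S) subunit, which reads the mRNA, and a large (60S) subunit, which joins amino acids. A flexible P stalk on the large subunit recruits elongation factors. Each protein is present about once per ribosome, apart from the stalk proteins, and surplus copies are degraded. The mRNAs are short, abundant and stable. Most begin with a C and a run of pyrimidines, the 5′ terminal oligopyrimidine (TOP) tract, through which mTOR and the RNA-binding protein Larp1 control their translation. Of the members here, 30 encode 40S proteins, 43 encode 60S proteins, 3 encode the P stalk and 4 are paralogs, that is, related copies of a ribosomal protein gene (Rpl3l, Rpl39l, Rps4l and Rps27l).

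Sequences around the annotated start show what many of these genes share apart from their names. RefSeq promoter sequences (GRCm38.p6, 250 bases before to 50 after the start) were found for 59 of the 80 members. The word CTTTCC is part of many pyrimidine tracts. On the strand of the gene it lay within 50 bases of a start in 19 of the 59 members (32.2%). Its share of all 27025 genes with a promoter sequence was 5.43%. On the opposite strand it was found in 1 member (1.69%, against 5.12%). A start at a C followed by 4 bases that are C or T was annotated in 13 members (22.0%, against 3.01%). The word CGGAAG, the core of sites for ETS factors, was found on either strand of the whole promoter in 41 members (69.5%). Its share was 18.8% of all genes and 36.9% of 1801 other genes with at least 1000 counts. TATAAA on either strand was found in 6 members (10.2%), against 15.7% of all genes but 9.61% of the other genes with at least 1000 counts. These words were chosen after member sequences had been seen. CTTTCC and the reverse of CGGAAG can overlap in part. A match is not a binding site, and annotated starts can lie some bases away from the true ones.

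The windows below run from 100 bases before to 15 after the start, 5′ to 3′ on the strand of the gene, with CTTTCC in capitals. The first 5 show the tract at the start of members of both subunits, and Rps27l, the paralog of Rps27, is shown since it lacks the word there.
Rps27 (chr3:90213634-90213748, minus strand): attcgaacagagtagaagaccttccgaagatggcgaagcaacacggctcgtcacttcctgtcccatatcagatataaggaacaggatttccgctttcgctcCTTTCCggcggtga
Rps10 (chr17:27635230-27635344, minus strand): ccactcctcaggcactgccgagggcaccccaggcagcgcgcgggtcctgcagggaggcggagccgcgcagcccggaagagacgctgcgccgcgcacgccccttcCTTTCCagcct
Rpl38 (chr11:114668480-114668594, plus strand): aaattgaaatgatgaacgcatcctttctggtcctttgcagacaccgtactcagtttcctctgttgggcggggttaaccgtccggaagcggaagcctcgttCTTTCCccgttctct
Rpl28 (chr7:4792865-4792979, plus strand): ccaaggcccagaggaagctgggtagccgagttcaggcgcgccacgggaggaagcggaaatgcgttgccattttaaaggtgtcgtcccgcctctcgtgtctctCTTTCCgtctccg
Rpl15 (chr14:18270972-18271086, minus strand): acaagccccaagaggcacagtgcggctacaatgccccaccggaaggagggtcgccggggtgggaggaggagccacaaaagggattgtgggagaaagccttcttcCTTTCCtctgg
Rps27l (chr9:66945986-66946100, plus strand, 1 of 2 annotated starts): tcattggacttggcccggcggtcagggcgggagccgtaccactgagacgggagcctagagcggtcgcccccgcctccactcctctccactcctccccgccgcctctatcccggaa

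The members together took slightly more of the IL-4 library than of the NT library. They held 355758 counts in NT, or 3.22% of the total (exact Clopper-Pearson 95% interval 3.21% to 3.23%). In IL-4 they held 406765 counts, or 3.62% (interval 3.60% to 3.63%). The log2 ratio of the summed counts, scaled to the library totals, was 0.17 with an interval of 0.16 to 0.17, a 1.12-fold difference. All intervals reflect counting error alone, and since no molecular identifiers were used, amplified copies of a molecule count as separate reads. In bulk RNA a change in the makeup of the cells and a change in RNA per cell cannot be told apart. Per length, the members made up 8.86% of the summed FPKM in NT and 9.62% in IL-4. FPKM counts fragments relative to transcript length and library depth.

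Individual members followed the group closely. Over the 80 members the median log2 ratio (IL-4 over NT) was 0.17, with quartiles of 0.11 and 0.23, beside a median of -0.03 over all 15593 genes tested. A ratio over 0 was found in 78 of 80 members, against 45.3% of all genes tested and 53.0% of 2234 other genes with at least 1000 counts. The counting interval lay above 0 in 69 members, against 17.9% of all genes and 40.7% of the other abundant genes. It lay below 0 in 0 members, against 20.4% and 38.5%. Limits on P and the false-discovery rate, which the study also set for this comparison, were not applied here. No member had a log2 ratio of 0.75 or more, the fold that the study used. This fold was passed by 10.9% of all genes tested and 6.31% of the other abundant genes. In the other direction 1 member passed, against 16.7% of all genes and 6.62% of the other abundant genes, and this was Rpl3l with 4 reads in all. A fold over 1.5 was found in 1 member, Rps27l, against 13.7% of all genes, and a fold lower by as much in 1 member, Rpl3l, against 20.6%. Since there was no replicate, none of these shares says how often animals would differ by as much.

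**Figure D1:**
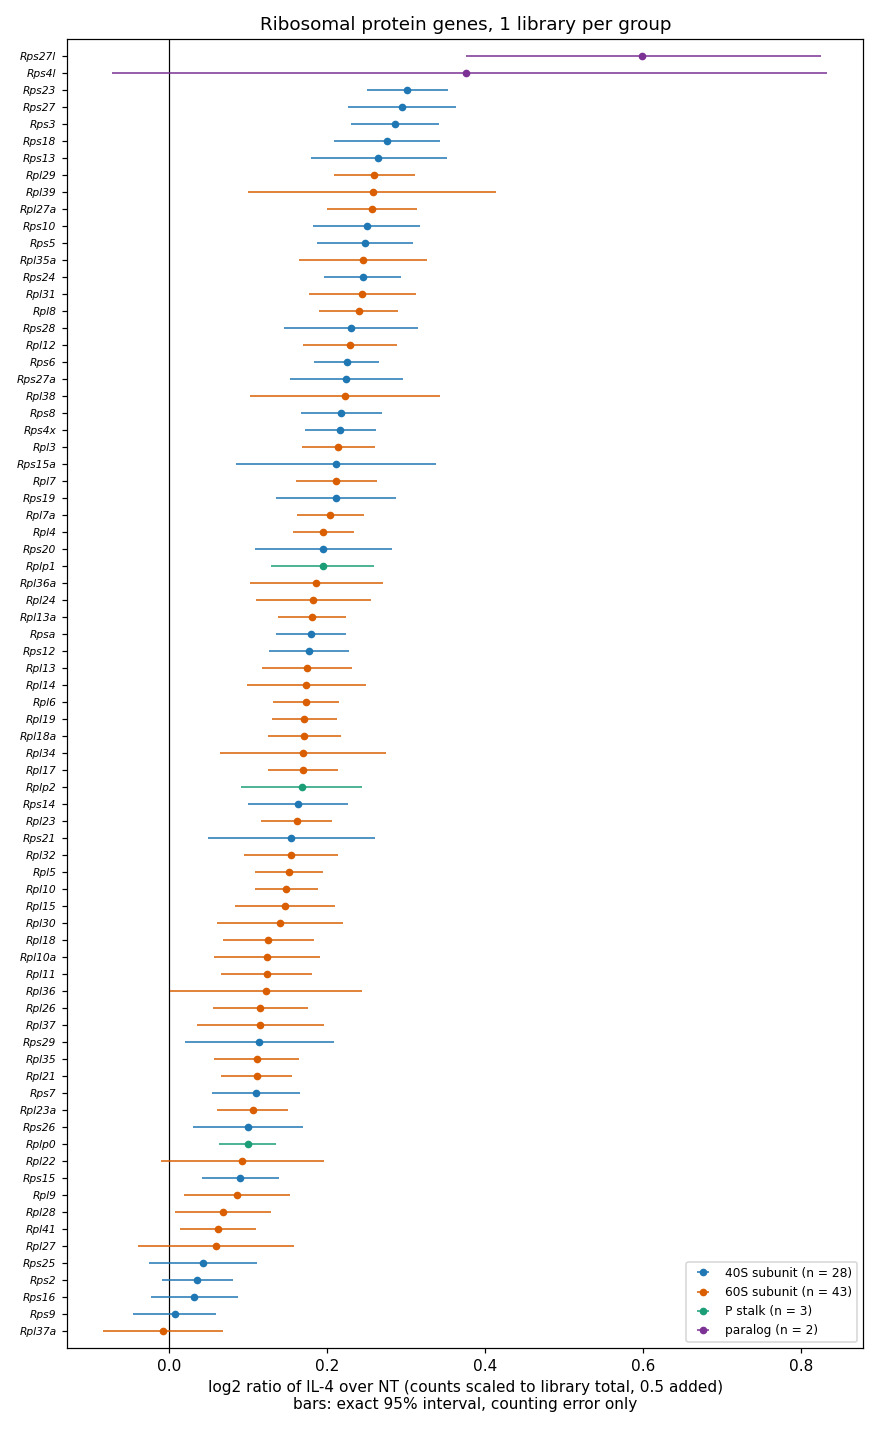
Log2 ratio, IL-4 over NT (x axis), for 76 of the 78 members with at least 50 counts in the library with more, ordered by ratio, with points for the ratio and bars for the exact 95% interval from counting error. All but Rpl37a lie at or to the right of 0, and Rps27l stands to the right of all others.

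The 76 members other than paralogs ranged from -0.01 for Rpl37a to 0.30 for Rps23, that is, from 0.995-fold to 1.23-fold. Their standard deviation was 0.0716 on the log2 scale. The interval held the ratio of the summed counts in 43 of the 76, lay above it in 17 and lay below it in 16. The spread among members was thus larger than counting error. The order of the levels was nearly the same in both libraries, with a Pearson correlation of 0.998 between log2 FPKM values across these 76 genes, which share both libraries. The Spearman correlation of their ratios was 0.042 with transcript length and -0.155 with FPKM in NT.

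Among the 30 genes of the 40S subunit the median log2 ratio was 0.21, and all 30 had a ratio over 0. Rps23, a protein of the decoding centre on chromosome 13 (90923122 to 90924732), had 5472.96 counts in NT and 6873.91 in IL-4. This was the highest ratio of a member other than a paralog, 0.30 with an interval of 0.25 to 0.35. Rps27 (chromosome 3, 90212667 to 90213648), whose start is shown above, had 3130 and 3913 counts, a ratio of 0.29. Rps3, which lines the channel where mRNA enters and also has a role in DNA repair, had 4691.02 and 5831 counts, a ratio of 0.29. Rps18 had 3287 and 4056 counts, a ratio of 0.28. The intervals of Rps23, Rps27, Rps3 and Rps18 all lay above the ratio of the summed counts.

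The lowest ratios of the small subunit were close to 0. Rps9 (chromosome 7, 3703954 to 3706897), which binds rRNA early in assembly, had 5756 counts in NT and 5896 in IL-4, a ratio of 0.01 with an interval of -0.05 to 0.06. Rps16 had 5206 and 5425 counts, a ratio of 0.03. Rps2 had 7893.35 and 8246.93 counts, a ratio of 0.04. Rps25 had 3362 and 3529 counts, a ratio of 0.04. In all 4 the interval included 0, so no difference was detectable at this depth, and in all 4 it lay below the ratio of the summed counts. Rps6, the substrate of S6 kinase, lay near the middle with 8718 and 10386 counts and a ratio of 0.22. Rps19, the gene most often mutated in Diamond-Blackfan anaemia, had a ratio of 0.21.

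Of the 43 genes of the 60S subunit, 42 had a ratio over 0, with a median of 0.17. Rpl29 had 5638.92 counts in NT and 6881.6 in IL-4, a ratio of 0.26. Rpl39, a small protein of the exit tunnel, had the fewest reads of any member other than a paralog, 610.7 and 744.33 counts, a ratio of 0.26 with a wide interval of 0.10 to 0.41. Rpl3, which lies near the peptidyl transferase centre, had 7024 and 8306 counts, a ratio of 0.21. Rpl5 and Rpl11, which carry the 5S rRNA into the subunit and can inhibit Mdm2, had ratios of 0.15 and 0.12. At the low end, Rpl37a (chromosome 1, 72711260 to 72713813) had 2795 and 2834 counts, a ratio of -0.01 with an interval of -0.08 to 0.07. Its sign turned to 0.03 with TMM scaling and to 0.02 with median-of-ratios scaling, so its direction is not settled. The difference of 0.04 between the subunit medians is smaller than the spread of either subunit and was not tested.

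The stalk genes were close to the other members. Rplp0, which anchors the stalk, had the most reads of all members, 11745 counts in NT and 12824.82 in IL-4. Its ratio was 0.10 with an interval of 0.06 to 0.14. Rplp1 had 3538 and 4126 counts, a ratio of 0.19. Rplp2 had 2589.19 and 2964.7 counts, a ratio of 0.17.

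Levels per length were high and differed widely between members. The 76 members other than paralogs had a median of 571 FPKM in NT and 645 FPKM in IL-4, beside 5.12 and 4.86 FPKM over all genes listed in each library. Of the 100 genes with the highest FPKM, 30 were members in NT and 32 in IL-4. Rpl41 (chromosome 10, 128548110 to 128549168), which encodes a very short basic peptide, was the highest with 1414 and 1475 FPKM. Rpl23a, which sits at the exit of the tunnel, followed with 1293 and 1391 FPKM. Rps15 had 1174 and 1249 FPKM, Rpl35 had 1140 and 1230 FPKM, and Rpl10, a protein added late in assembly, had 1092 FPKM in NT. Rpl19 took the fifth place in IL-4 with 1220 FPKM.

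**Figure D2:**
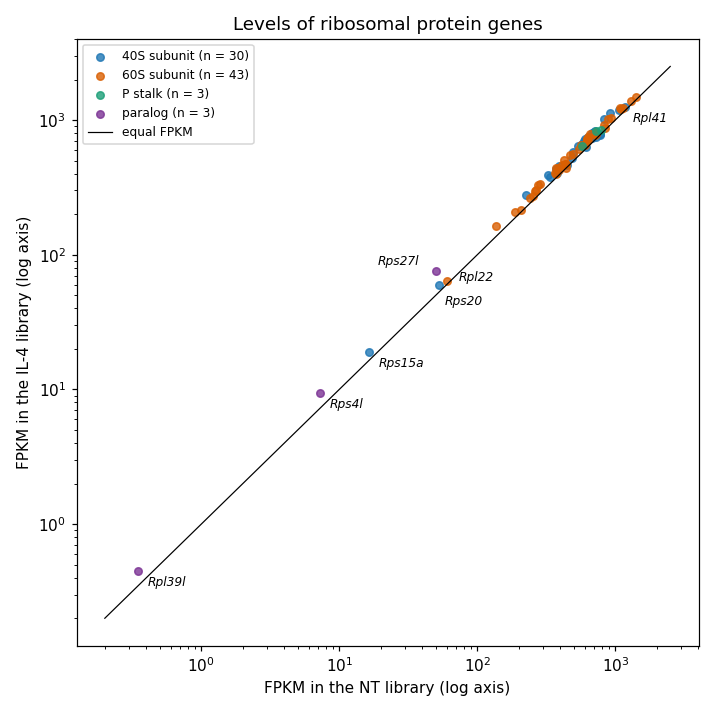
FPKM in the IL-4 library (y axis) against FPKM in the NT library (x axis), both on log axes, for the 79 members listed in both, with the line of equal FPKM. Points keep close to the line over the whole range, and Rps15a, Rps20 and Rpl22 lie below the main body of subunit genes.

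The lowest FPKM values of subunit genes went with long listed transcripts. Rps15a was given a length of 5158 bases in both tables and had 16.4 and 19.0 FPKM. Rps20 was given 3446 bases and had 52.42 and 59.96 FPKM, and Rpl22, at about 2203 bases, had 59.98 and 63.97 FPKM. For comparison, Rps28, with 328 bases and 2078 counts in NT against 2008.27 for Rps20, had 634 FPKM. GENCODE M21 lists 6 coding transcripts of Rps15a that run from 250 to 5179 bases, so its FPKM depends strongly on which of them is taken. Length and FPKM in NT were related over the 76 genes with a Spearman correlation of -0.246. The part of the listed length in these low levels was not tested further. A listed length that is the same in both tables cancels in the ratio.

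RSEM divides reads that match several genes by estimated abundance, which can leave counts that are not whole. Whole values, within 0.005 of a whole number, were found for 65 of 80 listed members in NT and 63 of 79 in IL-4. Among all listed genes whole values made up 77.6% in NT and 77.8% in IL-4. In both libraries at once, 62 of the 80 members had whole values. Sequence of 13 members was shared with another listed gene, counting at least 30% of the 31-base words of the smaller one. For Rpl32, with whole counts, this gene was the snoRNA Snora7a, and the other 12 were among the 18 members with a count that was not whole. No such gene was found for the remaining 6, among them Rplp0, Rps20, Rpl29 and Rps3. For 6 of the 12, the counts of the member and its copies summed to whole numbers in both libraries. Rpl14 with 2656.16 counts and Rpl14-ps1 with 909.84 counts summed to 3566 in NT, and to 4104 in IL-4. Rpl30 and Gm12191 summed to 3044 and 3474 counts.

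The split mattered most for Rpl31 and Rps15a. Rpl31 held 3218.96 of 6338 counts shared with Rpl31-ps12 in NT (50.8%) and 3887.71 of 7060 in IL-4 (55.1%). Its own ratio was 0.24, whereas that of the sum was 0.13 with an interval of 0.08 to 0.18. Its separate value is therefore uncertain. Rps15a held 56.2% and 54.3% of the reads of a set with Rps15a-ps4 and Rps15a-ps6, and its ratio of 0.21 became 0.26 for the set. For the other 10 of the 12 the ratio moved by less than for Rps15a, the most for Rpl37, from 0.12 to 0.15. The median over all members was unchanged at 2 decimals when all copies were added, 0.17.

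The paralogs were of low abundance and held the only ratio that stood clear of the subunit genes. Rps27l (chromosome 9, 66944624 to 66949522), a copy of Rps27 and a known p53 target, had 272 counts in NT and 420 in IL-4, or 50.2 and 75.9 FPKM. Its log2 ratio was 0.60 with an interval of 0.38 to 0.82, which lay above the interval of Rps27 (0.23 to 0.36). Levels of Rps27 were 16.6 times those of Rps27l in NT and 13.4 times in IL-4, in FPKM. Rps4l, annotated as a transcribed pseudogene and listed with a noncoding RefSeq transcript, had 74 and 98 counts and an interval of -0.07 to 0.83. Rps4x, its X-linked parent, had 7504 and 8889 counts, a ratio of 0.22. Rpl39l, known from testis, had 3 and 4 counts. Rpl3l, known from muscle, had 4 counts in NT and was not listed in IL-4. With a floor of 3 counts put in for IL-4, its scaled level there came to 1.36-fold lower than in NT. Its interval, with an upper bound of 0.57 on the log2 scale, did not exclude a higher level in IL-4.

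Paralogs outside the symbol rule were mixed. Rpl22l1 had 84 counts in NT and 115.45 in IL-4, a ratio of 0.43 with an interval of 0.01 to 0.85, beside 0.09 for Rpl22. Rpl36al had 1156 and 1453 counts, a ratio of 0.30, beside 0.19 for Rpl36a. Rpl7l1, a factor of ribosome assembly, had 958.41 and 973.37 counts, a ratio of -0.01, beside 0.21 for Rpl7. The rule also left out ribosomal proteins with other names. Fau, whose product is cleaved into a ubiquitin-like part and a 40S protein, had a ratio of 0.21. Rack1, a scaffold on the small subunit, had 0.19 and Rps3a1 had 0.16. With such genes added and the paralogs left out, the 80 proteins of the standard set had a median of 0.17 and 79 had a ratio over 0.

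The log2 ratio in these libraries went down with transcript length over genes in general, and ribosomal protein mRNAs are short. Over 8386 other genes with at least 200 reads the Spearman correlation of the ratio with length was -0.45, across genes that share both libraries. Other genes under 800 bases with at least 200 reads, 279 in number, had a median ratio of 0.17. The 48 members under 800 bases had 0.17 as well, and the 32 longer members had 0.19. The 62 other genes under 800 bases with at least 1000 counts had a median of 0.14 and a ratio of summed counts of 0.08. Their interval lay above 0 in 35 and below 0 in 11, against 42 and 0 of the 48 members. The ratio of summed counts of those 48 members was 0.15. The running median of other genes at the members' lengths was 0.18 at the middle member. With it subtracted, the median of the members was -0.0062 and 39 of 80 had a value over 0, against 45.6% of all genes tested and 51.4% of the other genes with at least 1000 counts. The interval then lay above 0 in 15 members, against 16.1% of all genes and 39.2% of the other abundant genes. It lay below 0 in 19, against 18.2% and 36.4%. By the median, the members as a group thus differed between the libraries by about as much as other short transcripts did. A response of ribosomal protein genes cannot be told apart from the length trend.

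**Figure D3:**
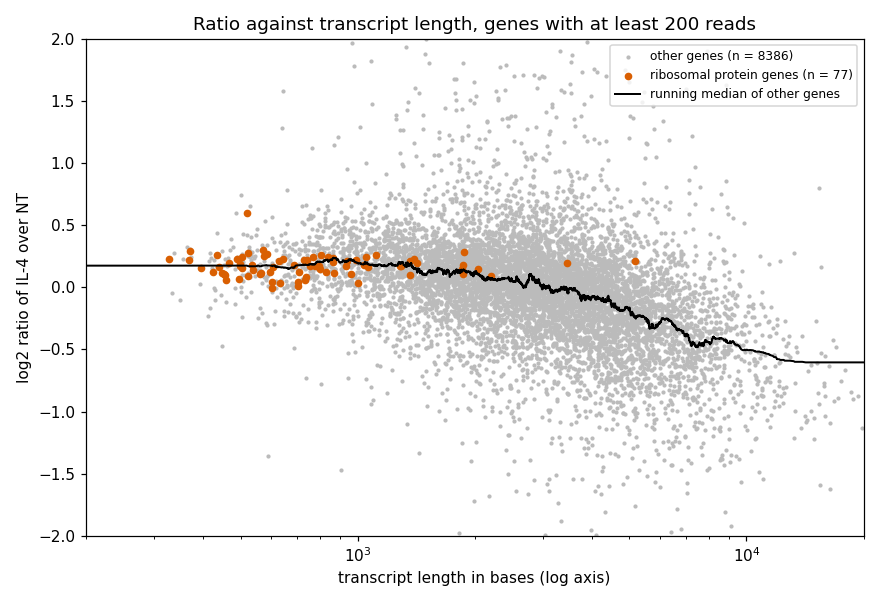
Log2 ratio, IL-4 over NT (y axis), against transcript length in bases (x axis, log scale) for genes with at least 200 reads, with 77 ribosomal protein genes in orange, 8386 other genes in grey and the running median of the 200 other genes nearest in length as a line. The members lie around the line at about 0.18, and 68 other genes are beyond the axes.

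With these shares as background, the members farthest from genes of their length are given as values. Rps27l stayed at 0.42 after the subtraction. Rps15a and Rps20 came to 0.44 and 0.20, since genes of 5158 and 3446 bases had medians of -0.23 and -0.01. Those 2 values rest on the listed lengths discussed above. Rps3 came to 0.15, Rps23 and Rps27 to 0.12. In the other direction Rpl37a came to -0.18, Rps9 to -0.17 and Rps2 to -0.15.

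Other genes of the translation machinery were examined in the same way. Ribosome biogenesis factors, which process rRNA and assemble subunits in the nucleolus, had a median ratio of 0.29 over 53 genes. Of these, 45 had a ratio over 0 (45.3% of all genes). For the 53, the interval lay above 0 in 33 and below 0 in 3 (17.9% and 20.4% of all genes). They have a median length of 2373 bases, and with the length trend subtracted the median was 0.23, beside the -0.0062 of the ribosomal proteins. Of the 53, 1 passed 0.75, against 10.9% of all genes tested. This was Rrs1, a factor of large subunit assembly, with 371 counts in NT and 686 in IL-4 and a ratio of 0.86. Tsr1, needed for the small subunit, had 279 and 443 counts, a ratio of 0.64. At the low end Krr1 had a ratio of -0.49 and Nvl of -0.31. With the length trend subtracted Krr1 was -0.3, whereas Nvl turned to 0.15. The 8 modification and nucleolar factors, including Ncl at 0.24, Npm1 at 0.26 and Nolc1 at 0.57, all had ratios over 0.

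Translation factors had a median of 0.14 over 46 genes, 35 of them over 0 (45.3% of all genes). The interval lay above 0 in 26 and below 0 in 8 (17.9% and 20.4% of all genes). With the length trend subtracted the median was 0.0768 and 27 were over 0 (45.6% of all genes). None passed 0.75 in either direction, against 10.9% higher and 16.7% lower of all genes. Eif5a, which helps ribosomes through difficult peptide bonds, had 4418 and 7300 counts, a ratio of 0.70. Eef2k, the kinase of elongation factor eEF2, had 94.26 and 155.08 counts, a ratio of 0.69. Eif4ebp2, a repressor of cap-dependent initiation, had 570 and 402 counts, a ratio of -0.53. Larp1 had 2053.98 and 1458 counts, a ratio of -0.52, though with the length trend subtracted it was -0.18. The 7 elongation genes of the list had a median of 0.16, with 6 over 0, and ranged from -0.07 for Eef2 to 0.69 for Eef2k.

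RNA polymerase I subunits and factors, which transcribe rRNA, had a median of 0.09 over 14 genes, and 9 had a ratio over 0 (45.3% of all genes). With the length trend subtracted the median turned to -0.0603, with 6 over 0 (45.6% of all genes). None passed 0.75 in either direction, against 10.9% higher and 16.7% lower of all genes. Polr1e had a ratio of 0.54 with an interval of 0.05 to 1.06, and Taf1b 0.31 with -0.07 to 0.70, the highest of the 14. Taf1c (-0.41, interval -0.73 to -0.09) and Polr1a (-0.31, interval -0.52 to -0.10) had the lowest. With the length trend subtracted, the values in the same order were 0.56, 0.19, -0.38 and -0.05. By the median, other sets of housekeeping mRNAs were similar to the ribosomal proteins or higher. By summed counts, the ratio was 0.23 for mitochondrial ribosomal proteins, 0.26 for respiratory chain subunits and 0.17 for the members. For proteasome subunits it was lower, 0.13. Mitochondrial ribosomal proteins had a median of 0.24 over 78 genes, respiratory chain subunits 0.25 over 77 and constitutive proteasome subunits 0.22 over 35. Of the 35, 1 passed 0.75, at 1.56, against 10.9% of all genes tested. With 0.5 added, 0 counts in NT and 1 in IL-4 also give 1.56, so this value can rest on very few reads. The 34 proteasome genes with at least 50 counts in the library with more had a median of 0.21. With the length trend subtracted the medians were 0.10 for mitochondrial ribosomal proteins, 0.08 for respiratory chain subunits and 0.08 for the 35 proteasome subunits. Differences between these sets were not tested.

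**Figure D4:**
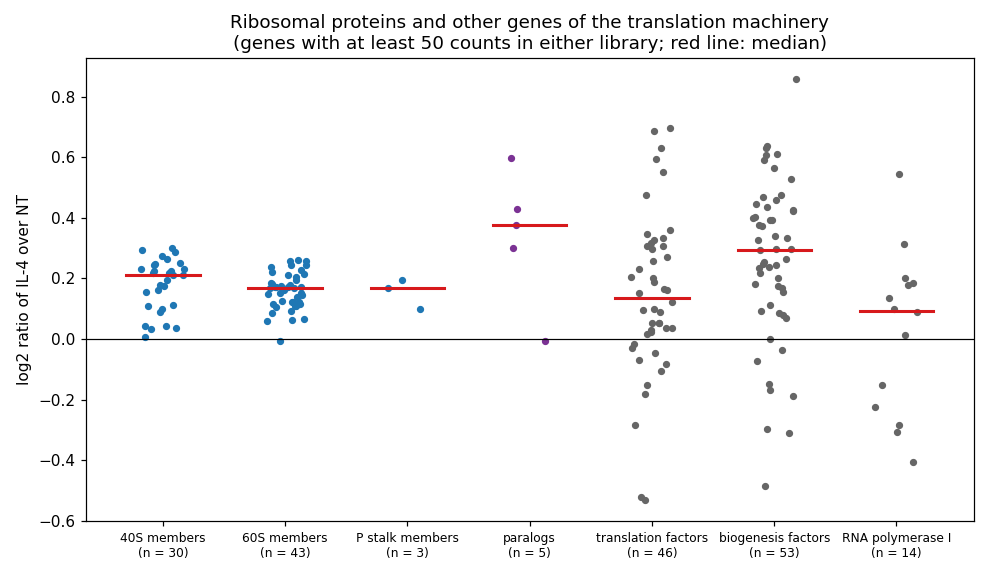
Log2 ratio, IL-4 over NT (y axis), by gene group (x axis) for genes with at least 50 counts in the library with more, each point a gene and each red line a median. The 40S and 60S genes keep within -0.01 to 0.30, whereas translation and biogenesis factors extend from about -0.53 to 0.86.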

How the data were processed

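RNA libraries were read at BGI on a HiSeq instrument (Illumina). The authors aligned the reads by Bowtie to mouse GRCm38/mm10, and RSEM gave the gene values (versions not given in the sources used here). The deposited tables list, per gene, an expected count, which the authors did not scale for depth, and an FPKM value, which they scaled for length and depth. A length column, weighted over transcripts, was also deposited. A gene absent from a table was set to 0. NCBI gene numbers were matched to symbols and coordinates through a RefSeq table of GRCm38.p6 (36 of 15623 were not matched).

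Ratios were computed from counts scaled to the library total with 0.5 added. For each gene, the share of its rounded counts that came from IL-4 was given an exact Clopper-Pearson 95% interval, which was then turned into a log2 ratio. A floor of 3 counts was 0.272 CPM in NT and 0.267 CPM in IL-4. The running median over length used the 200 nearest of the other genes with at least 200 reads. Ratio and interval code was tested on simulated libraries. The members, gene lists and comparisons were chosen with earlier results of these data known. Genes named are those listed in 1 table only, those past 0.75 with at least 50 counts, the 6 highest and 6 lowest ratios, the highest and lowest FPKM, stalk genes, paralogs with their parents, and those with fractional counts or differing lengths. Others are named for their role, and Rpl14, Rpl30 and Rpl31 for the way their reads are shared, after their values had been seen. A few single genes are not reported here, though sums and counts over groups include them. Alternatives were scaling by TMM (edgeR 4.0.16) or by median of ratios (DESeq2 1.42.0), totals without the 100 most abundant genes or without the members, 1 count added, FPKM with 0.1 or 1 added, a filter on low counts, other folds, subtraction of the length trend, and other sets of members or of copies. Python 3.11.15, scipy 1.17.1 and R 4.3.3 were used.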

Additional observations from a re-analysis of the deposited data

How the results depend on the processing

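No paired analysis was possible because 1 library stands for each condition, and for the same reason no replicate could be left out. The ratio of the summed counts was 0.17 and the median 0.17, with 0 members past 0.75 higher, 1 lower, 69 intervals above 0 and 0 below. Subtracting the length trend reversed the first 2, to -0.011 and -0.0062, with 15 intervals above 0 and 19 below. With members included in the trend, a choice made after seeing the data, they were -0.0087 and -0.0005, with 16 above and 19 below. By construction this removes what members share with genes of their length. The ratio of the sum was 0.20 with TMM, 0.19 with median-of-ratios scaling and 0.15 without the 100 most abundant genes, where the intervals above 0 numbered 74, 74 and 64. Rpl3l no longer counted as lower with FPKM plus 1, with at least 50 reads, in the standard set or without paralogs (0 in each). A fold over 1.5 gave 1 member higher, Rps27l. The other alternatives left these values within counting error or 1.5 times. Over 36 named genes, most values that moved did so under the length trend. The exceptions were Rplp0 with TMM (0.14) and Rpl31 with its copy added (0.13). Depth limits Rpl3l and Rpl39l, with under 8 reads each.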
